A study of Mus musculus with 6 samples.

Results

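Replication-dependent histone genes supply the histones that package newly made DNA. They were taken here as the protein-coding genes of the mouse annotation (GENCODE M21) whose symbols begin with Hist1h, Hist2h, Hist3h or Hist4h, which gave 67 of the 55487 genes in the count table. By histone class there were 6 genes for the linker histone H1, 18 for H2A, 18 for H2B, 12 for H3 and 13 for H4. On the GRCm38 build, 54 of them lie in histone cluster 1 (chr13:21715763-23934851), 10 in cluster 2 (chr3:96219865-96270132), 2 in cluster 3 on chromosome 11 and 1 in cluster 4 on chromosome 6.

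The cells were the mouse embryonic stem (ES) cell line D6AdP, grown on fibroblast feeders treated with mitomycin-C. Their medium held PD0325901, which inhibits MEK, CHIR99021, which inhibits GSK3, and leukemia inhibiting factor. In every library both Ddx6 alleles encoded DDX6-AID-mCherry, 1 Dcp1a allele encoded DCP1a-EGFP, and the transgene OsTIR1-FLAG supplied the plant F-box protein through which an auxin directs AID-tagged proteins to the proteasome. The groups were cells before treatment (0 h) and cells kept for 3 h or 6 h with 500 nM of the auxin analog 5-Ph-IAA, with 2 libraries each and 6 in all. PolyA RNA was sequenced, so the counts record mRNA and not DDX6 protein, and Ddx6 mRNA itself measured 267 and 250 counts per 1000000 library counts (CPM) at 0 h, 269 and 271 CPM at 3 h, and 258 and 247 CPM at 6 h. Neither time-matched untreated wells nor treated cells lacking the degron were among the libraries, so time in culture and auxin exposure cannot be told apart from loss of DDX6. Nothing in the labels says whether libraries of a group were grown separately, and each p-value therefore reflects library-to-library spread alone, which may be technical.

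Replication-dependent histone mRNAs are known for ending without a polyA tail. Their 3′ end is instead a short stem-loop, which is bound by the stem-loop binding protein SLBP and is cut just downstream by a machinery that includes the U7 small nuclear ribonucleoprotein. They accumulate in S phase and are degraded when DNA synthesis stops, through the addition of uridines to the 3′ end followed by the LSM1-7 ring and decay enzymes, the same decay arm in which DDX6 and decapping act on other mRNAs. Some histone genes also give polyadenylated transcripts from a site beyond the stem-loop, and selection for polyA RNA favours those.

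The stem-loop was present in the annotated 3′ UTR of 44 genes. It was searched on the sense strand as the histone stem-loop, 16 bases that open with GG and close with CC, with a T-rich loop between arms of 6 bases that pair, G-T pairs allowed. Of the remaining genes, 13 have no annotated 3′ UTR and 10 have a 3′ UTR without a match. Among those 10, the 3′ UTRs of Hist1h2af and Hist1h2ah, of 1 and 2 bases, are too short to hold the stem-loop. That of Hist2h3b is only 37 bases long. The sequences below show the stem-loop in capitals with up to 5 bases on each side, for 1 abundant gene of each class and for a further form found among H4 genes.
Hist1h1c (H1, chr13:23739512-23739527, plus strand): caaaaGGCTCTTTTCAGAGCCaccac
Hist1h2ap (H2A, chr13:21833029-21833044, minus strand): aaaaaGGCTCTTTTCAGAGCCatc
Hist1h2be (H2B, chr13:23585531-23585546, minus strand): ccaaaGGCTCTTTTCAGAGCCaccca
Hist1h3d (H3, chr13:23576244-23576259, plus strand): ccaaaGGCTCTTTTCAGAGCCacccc
Hist1h4i (H4, chr13:22040966-22040981, minus strand): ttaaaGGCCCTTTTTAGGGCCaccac
Hist1h4j (H4, chr13:21735437-21735452, plus strand): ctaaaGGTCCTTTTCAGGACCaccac
The 44 matches had 6 distinct sequences. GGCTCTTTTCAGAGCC was the most frequent, with 26 genes, and was found in H1, H2A, H2B and H3 genes but in no H4 gene. The 11 matching H4 genes carried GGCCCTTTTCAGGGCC in 7 cases, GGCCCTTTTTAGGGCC in 2 and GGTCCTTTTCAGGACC in 2. The match began a median of 32 bases after the stop codon, with a range of 22 to 59.

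The annotation also gives many of these genes a long tail beyond the stem-loop. In 22 of the 44 genes it runs on for more than 100 bases. A polyA signal (AATAAA or ATTAAA, sense strand) was found in the annotated 3′ UTR of 22 genes, 17 with a stem-loop as well and 5 without one. The signals of the 3 most abundant such genes are printed in capitals because these genes carry most of the counts below.
Hist1h1c (chr13:23740342-23740347, plus strand): atgcttctAATAAAaagcgttt
Hist1h2bc (chr13:23692462-23692467, plus strand): gtatatatAATAAAtgtcatgt
Hist1h4i (chr13:22040651-22040656, minus strand): ctgtttacATTAAAagtattct
In Hist1h1c the annotated transcript continues for 840 bases past the stem-loop, and the signal stands 20 bases before its annotated end. Hist1h4i continues for 330 bases with its signal 15 bases before the end. In Hist1h2bc the signal stands 441 bases before the annotated end. A signal here means any AATAAA or ATTAAA in the annotated 3′ UTR, and whether it is used was not tested. Hist1h2ap, by comparison, ends 3 bases after its stem-loop and has no signal.

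Histone reads were rare. Library totals ranged from 16357142 to 21846959 counts, of which the 67 genes together held 1371 and 1383 counts at 0 h, 1291 and 1476 counts at 3 h, and 1261 and 1312 counts at 6 h. At least 1 count was found for 62 genes. The other 5, Hist1h2aa, Hist2h2aa1, Hist2h2ab, Hist1h2ba and Hist2h3c1, had 0 counts in every library, where 3 counts would be 0.139 to 0.181 CPM. Gm20634 overlaps all 1825 exon bases of Hist2h3c1 and 529 of the 586 of Hist2h2aa1 on the same strand. The 0 counts of these genes are therefore uncertain and need not mean a level below that floor. A filter on low counts left 21 genes for testing, 5 of H1, 6 of H2A, 4 of H2B, 3 of H3 and 3 of H4. The 46 untested genes had a median of 15.5 counts over all 6 libraries, a highest total of 47, and 8.91% of all histone counts.

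A pair of genes made up most of the signal. Hist1h1c, a linker histone gene, and Hist1h2bc, a core H2B gene, together held 60.5% of the 8094 histone counts. Per kilobase of annotated exon (RPKM, mean of 6 libraries) Hist1h1c stood at 15.6 and Hist1h2bc at 14.9, followed by Hist1h2ap at 7.62, Hist1h4i at 3.47, Hist1h3b at 1.65 and Hist1h4h at 1.32. The median gene of a class lay far below these, at 0.4995 RPKM for H1, 0.300 for H2A, 0.260 for H2B, 0.287 for H3 and 0.347 for H4. The annotated length includes the long tails, so a gene whose transcripts mostly end at the stem-loop has its RPKM understated.

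**Figure D1:**
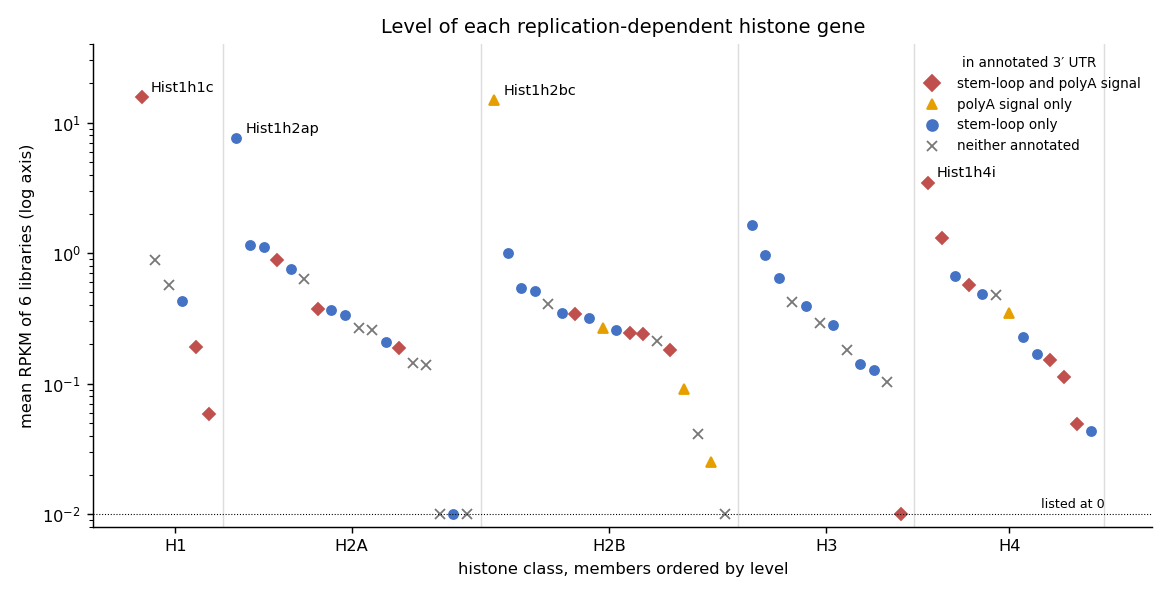
Mean RPKM of each of the 67 genes over 6 libraries (log axis), in class order, with the symbol showing whether the annotated 3′ UTR holds the stem-loop, a polyA signal, both or neither. Hist1h1c and Hist1h2bc stand at 15.6 and 14.9 RPKM and most other genes lie below 1 RPKM; 5 genes at 0 are drawn on the dotted line.

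Core nucleosomes hold the 4 core histones in equal amounts as protein, but the summed RPKM of the classes did not stand in equal proportion. The sums come from polyA RNA and leave out histone genes outside this set. They also depend on annotated length and on unique sequence, which differ between classes, so they do not measure the proportions of histone protein. The sums were 14.4 for H2A, 19.9 for H2B, 5.19 for H3 and 8.09 for H4, beside 17.8 for the linker histone H1. A single gene gave 88.0% of the H1 sum (Hist1h1c), 74.8% of the H2B sum (Hist1h2bc) and 52.8% of the H2A sum (Hist1h2ap), against 42.9% for H4 (Hist1h4i) and 31.7% for H3 (Hist1h3b).

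The counts followed the annotated polyA signals only in part. The 22 genes with a signal held 78.1% of the histone counts and the 45 without one held the rest. Hist1h1c and Hist1h2bc both belong to the signal group; without them its 20 remaining genes held 44.4% of the remaining counts. The median level was 0.239 RPKM for genes with stem-loop and signal, 0.391 RPKM for those with the stem-loop only, 0.266 RPKM for those with a signal only and 0.236 RPKM for those with neither. In the same order the median total count was 47, 28, 22 and 10.5, and the median 3′ UTR length 880, 89, 1608 and 0 bases. RPKM divides by annotated length, so the order of the groups depends on the measure. Of the 18 genes with neither, 13 have no annotated 3′ UTR, and those of Hist1h2af and Hist1h2ah, of 1 and 2 bases, are too short. Neither element could be found in these genes. They also count among the 45 genes without a signal. Hist1h2ap, at 7.62 RPKM, was the highest gene with no signal.

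Near-identical sequence limits how far single genes can be read. A median of 50.5% of a gene's 50-base windows were unique among GENCODE transcripts, and 16 genes had under 20% unique windows. H2A genes were the least distinct, with a median of 27%, against 98.9% for H1 genes. Hist1h2ap had 6.90% unique windows and shared 93.1% with Hist1h2ao, so their reads could be split either way; summed, the pair measured 3.89 and 4.50 CPM at 0 h, 4.54 and 5.00 CPM at 3 h, and 3.50 and 3.81 CPM at 6 h. The exons of all 18 H2A genes overlap an annotated gene on the opposite strand, and the strand setting of the counting is not given in the sources used here, so those counts are uncertain.

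The first question was whether the histone mRNA pool moved with time in auxin. The sum of all 67 genes stayed within a narrow range, at 71.1 and 64.1 CPM at 0 h, 61.1 and 68.3 CPM at 3 h, and 76.0 and 70.4 CPM at 6 h. The ratio of group means was -0.06 on the log2 scale for 3 h against 0 h, 0.12 for 6 h against 0 h and 0.18 for 6 h against 3 h, and the pooled SD of libraries within a group was 0.10. The 3 h libraries overlapped the 0 h libraries, and the 6 h libraries overlapped the 0 h libraries, while both 6 h sums lay above both 3 h sums. Without Hist1h1c and Hist1h2bc the sums were 27.2 and 25.7 CPM at 0 h, 24.6 and 29.7 CPM at 3 h, and 27.6 and 26.7 CPM at 6 h, with the 6 h values inside the 3 h range. In these bulk libraries fewer cells making a transcript and less of it per cell cannot be told apart, and ES and feeder cells were sequenced together.

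The classes did not all lie in the same order. H1 summed to 28.9 and 25.2 CPM at 0 h, 24.975 and 24.4 CPM at 3 h, and 34.1 and 28.9 CPM at 6 h, so both 6 h libraries were above both 3 h libraries. H2B did likewise, with 23.2 and 20.7 CPM at 0 h, 18.6 and 21.7 CPM at 3 h, and 25.1 and 23.8 CPM at 6 h. H2A summed to 9.59 and 8.90 CPM at 0 h, 8.66 and 11.1 CPM at 3 h, and 8.62 and 8.16 CPM at 6 h. The 6 h H2A libraries were therefore the lowest, just under the lower 3 h library. H3 gave 4.10 and 4.03 CPM at 0 h, 3.55 and 5.18 CPM at 3 h, and 3.62 and 3.92 CPM at 6 h, and H4 gave 5.29 and 5.24 CPM at 0 h, 5.25 and 5.92 CPM at 3 h, and 4.58 and 5.64 CPM at 6 h. For H3 and H4 the 6 h range overlapped the 3 h range. The sums are given as values and were not tested.

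**Figure D2:**
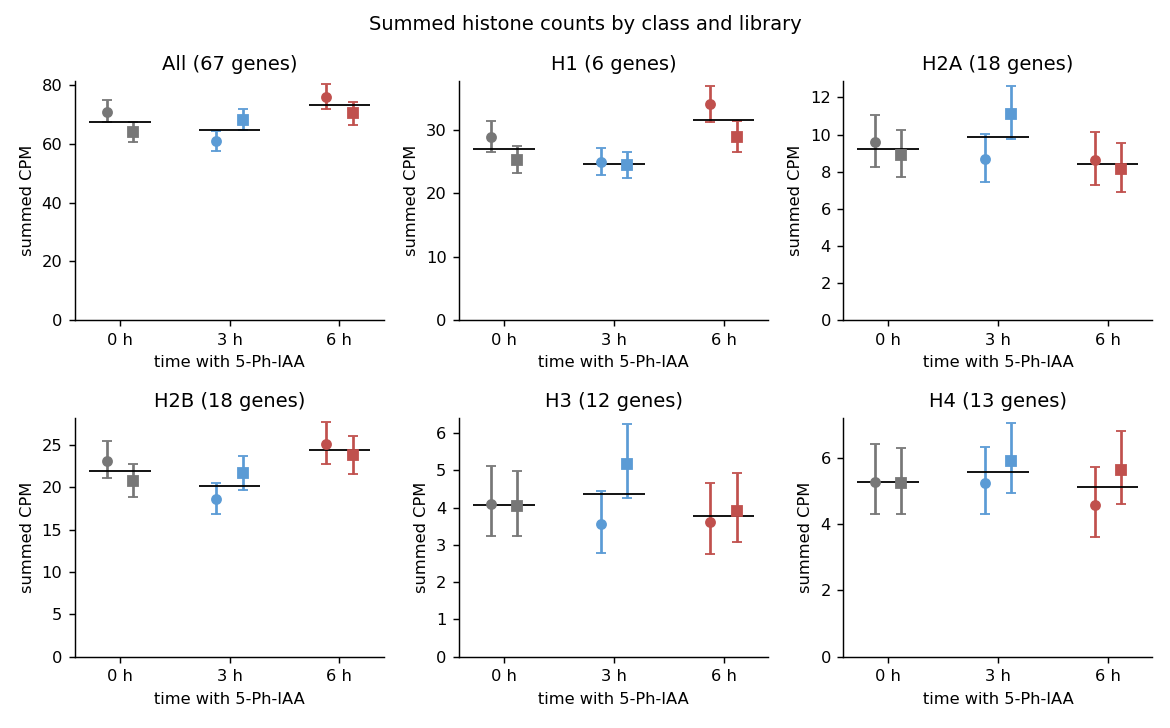
Summed CPM of all 67 genes and of each class in each library at 0, 3 and 6 h (circles replicate 1, squares replicate 2, bars 95% Poisson intervals of the counts, which cover counting error only, lines group means). The H1 and H2B sums are higher in both 6 h libraries than in both 3 h libraries, while H3 and H4 overlap.

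At 3 h against 0 h no histone gene changed by the test. Of the 21 tested genes 0 were called at an adjusted p under 0.05 by edgeR's quasi-likelihood test, against 0.14% of all 15748 genes tested, and 0 had an unadjusted p under 0.05, against 10.7% of all genes. The limma voom fit also called 0. DESeq2 called 0 but gave no adjusted p to 19 of the 21 genes. The smallest adjusted p in edgeR was 0.542, for Hist1h1c, which measured 21.8 and 21.6 CPM at 3 h and 26.0 and 22.3 CPM at 0 h (log2 fold change -0.15 ± 0.08, SE). The groups did not overlap for 3 genes that were higher at 3 h (Hist1h2ap, Hist3h2a and Hist1h3d; 20.5% of all genes tested) and 2 that were lower (Hist1h1c and Hist1h4h; 21.8% of all). The median log2 fold change was -0.06 for the tested histone genes and -0.00084 for all genes tested.

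In the comparison of 6 h against 0 h, where 22.3% of all genes tested were called, 0 of the 21 histone genes were called by edgeR's quasi-likelihood test, and limma voom called 0 as well. DESeq2 called 0 but gave no adjusted p to 16 of the 21 genes. A single gene had an unadjusted p under 0.05, against 34.6% of all genes tested. This was Hist1h1d, a linker histone gene, with 1.63 and 2.09 CPM at 6 h and 1.3996 and 1.07 CPM at 0 h (log2 fold change 0.61 ± 0.28, SE, adjusted p = 0.129 in edgeR). Hist1h1c measured 29.4 and 25.2 CPM at 6 h against 26.0 and 22.3 CPM at 0 h, so the groups overlapped, and its 95% interval ran from -0.0011 to 0.35 on the log2 scale. The groups did not overlap for 5 genes that were higher at 6 h (Hist1h1d, Hist1h2ab, Hist1h2ao, Hist1h2bc and Hist1h2bg; 29.6% of all genes tested) and 2 that were lower (Hist1h2ap and Hist1h4h; 29.9% of all). The median log2 fold change was 0.15 for the tested histone genes and 0.0019 for all genes tested.

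The precision differed greatly between genes. For the 6 h against 0 h comparison the standard error of a log2 fold change was 0.08 for Hist1h1c and 0.09 for Hist1h2bc, but the median over the 21 genes was 0.38 and the median 95% interval reached 0.80 to either side. A change smaller than that could go undetected at this depth for many of the tested genes. The interval is not adjusted for the number of genes tested. Hist1h4i, the most abundant H4 gene, measured 2.11 and 2.95 CPM at 6 h and 2.38 and 2.69 CPM at 0 h, a log2 fold change of 0.0051 with a 95% interval from -0.45 to 0.46.

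In the comparison of 6 h against 3 h, 2 of the 21 tested histone genes were called higher, Hist1h1c and Hist1h2be, and 0 lower. In that comparison edgeR's quasi-likelihood test called 21.7% of all genes tested, 9.89% higher and 11.8% lower. Higher calls were thus about as frequent among the histone genes as among all genes. Hist1h1c measured 29.4 and 25.2 CPM at 6 h and 21.8 and 21.6 CPM at 3 h, a log2 fold change of 0.33 ± 0.08 (SE) with an adjusted p of 0.0106 in edgeR. Hist1h2be, an H2B gene, measured 2.29 and 1.77 CPM at 6 h and 0.899 and 1.20 CPM at 3 h, a log2 fold change of 0.93 ± 0.29 (SE) with an adjusted p of 0.0293 in edgeR. Both 6 h libraries were above both 3 h libraries for each gene, while the 0 h libraries of Hist1h2be, at 1.81 and 1.16 CPM, spanned the gap. Exons annotated to Hist1h2be overlap those of Hist1h1e and Gm11398 on the same strand over 496 bases, so its count is uncertain. Hist1h1e itself measured 1.09 and 0.698 CPM at 6 h and 0.804 and 0.833 CPM at 3 h.

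The call for these genes rested on particular libraries and settings. Without the first 3 h library, or without the first 6 h library, edgeR called 0 histone genes; without the second 3 h library it called Hist1h2bc in their place. No filter on low counts, or DESeq2, also gave 0 calls, though DESeq2 gave an adjusted p to 4 of the 21 genes only.

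The other genes with an unadjusted p under 0.05 at 6 h against 3 h moved in both directions. There were 5 of 21 in all, the 2 called genes and 3 that did not pass the adjustment, in a comparison where 34.3% of all genes tested had such a p. Hist1h2bc had 19.1 and 18.5 CPM at 6 h and 14.7 and 17.1 CPM at 3 h (log2 fold change 0.24 ± 0.09, SE, adjusted p = 0.0612 in edgeR). Hist1h1d had 1.63 and 2.09 CPM at 6 h and 1.37 and 0.925 CPM at 3 h (adjusted p = 0.0831 in edgeR). Hist1h2ap, the H2A gene with little unique sequence, had 2.89 and 3.22 CPM at 6 h and 4.02 and 4.53 CPM at 3 h (log2 fold change -0.48 ± 0.17, SE, adjusted p = 0.0569 in edgeR). The groups did not overlap for 7 genes that were higher at 6 h (30.8% of all genes tested) and 6 that were lower (30% of all). The median log2 fold change was 0.03 for the tested histone genes and 0.0052 for all genes tested. The comparisons share libraries, so they are not independent of each other.

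**Figure D3:**
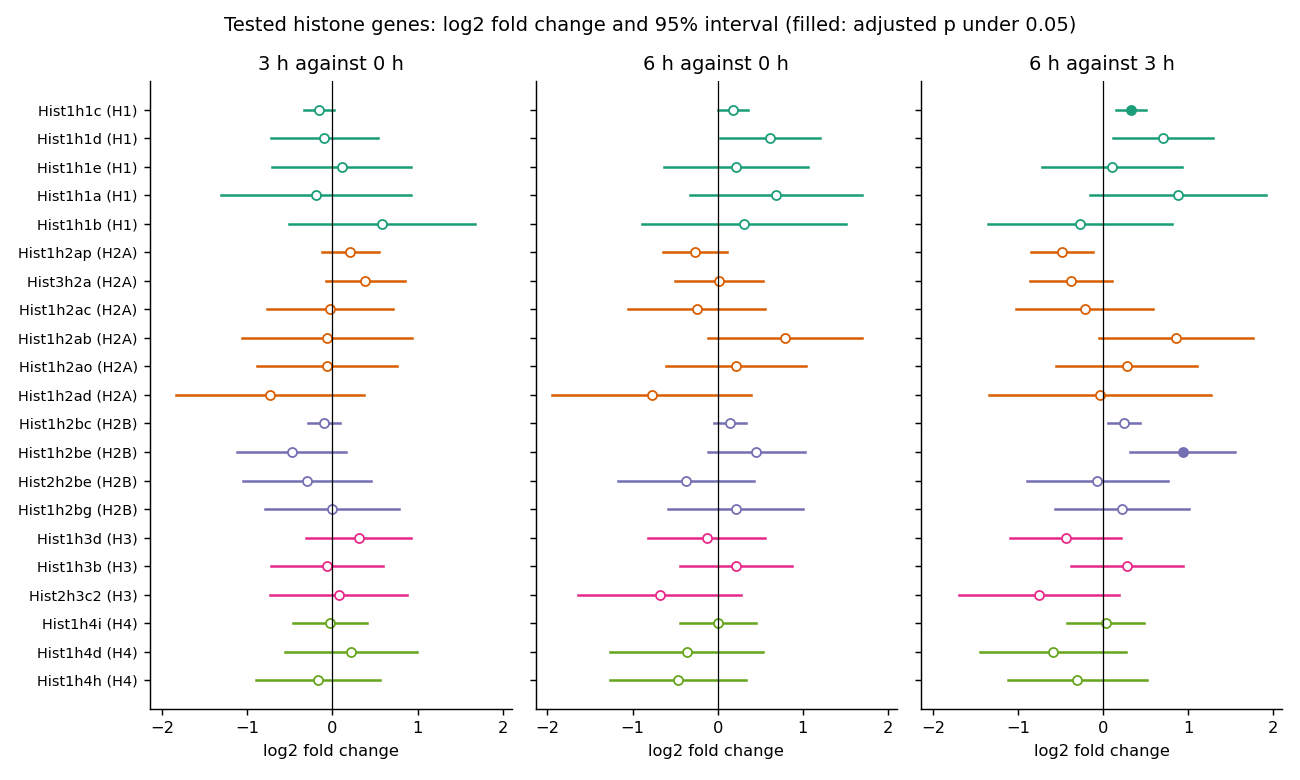
Log2 fold change of the 21 tested histone genes in each comparison with 95% intervals from the edgeR fit (filled points adjusted p under 0.05), grouped by class. Only Hist1h1c and Hist1h2be at 6 h against 3 h are filled, and the intervals of Hist1h1c and Hist1h2bc are the narrowest.

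None of the other genes named for their level was called. Among H2A genes, Hist3h2a of cluster 3, whose exons overlap Trim17, measured 1.71 and 1.72 CPM at 0 h, 2.03 and 2.45 CPM at 3 h, and 1.57 and 1.88 CPM at 6 h, and both 3 h libraries were above all others. Hist1h2ac measured 1.296 and 0.695 CPM at 0 h, 0.899 and 1.02 CPM at 3 h, and 1.09 and 0.590 CPM at 6 h, with overlap throughout. The H2B gene Hist2h2be of cluster 2 measured 0.933 and 0.695 CPM at 0 h, 0.757 and 0.555 CPM at 3 h, and 0.482 and 0.751 CPM at 6 h.

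Among H3 genes, Hist1h3d measured 1.296 and 1.02 CPM at 0 h, 1.37 and 1.48 CPM at 3 h, and 0.724 and 1.34 CPM at 6 h, so the 6 h libraries were below the 3 h libraries. Hist1h3b measured 1.19 and 0.788 CPM at 0 h, 0.851 and 1.02 CPM at 3 h, and 1.15 and 1.13 CPM at 6 h. Hist2h3c2 measured 0.518 and 0.927 CPM at 0 h, 0.615 and 0.925 CPM at 3 h, and 0.603 and 0.322 CPM at 6 h, so both 6 h libraries were below both 3 h libraries while the 0 h libraries overlapped both. Both H4 genes beside Hist1h4i were at or under 1 CPM. Hist1h4h measured 0.778 and 0.649 CPM at 0 h, 0.615 and 0.648 CPM at 3 h, and 0.482 and 0.537 CPM at 6 h, with both 6 h libraries below all others. Hist1h4d measured 0.726 and 0.603 CPM at 0 h, 0.568 and 0.972 CPM at 3 h, and 0.603 and 0.429 CPM at 6 h.

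Genes with and without an annotated polyA signal were also set side by side. Those with a signal summed to 56.9 and 49.3 CPM at 0 h, 47.5 and 50.6 CPM at 3 h, and 60.7 and 56.5 CPM at 6 h. Those without summed to 14.2 and 14.8 CPM at 0 h, 13.5 and 17.7 CPM at 3 h, and 15.4 and 13.96 CPM at 6 h. Both 6 h libraries were above both 3 h libraries for the genes with a signal, whose sum is mostly Hist1h1c and Hist1h2bc, and inside the 3 h range for the genes without.

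Factors that transcribe histone genes and process or degrade histone mRNA changed in both directions by 6 h. A list of 27 such factors, all tested, had 0 calls at 3 h against 0 h by edgeR, and at 6 h against 0 h it had 5 higher (Tut4, Lsm10, Zfp473, Mif4gd and Ccne1), 9 lower and a log2 median of -0.04, in a comparison where 10% of all genes were called higher and 12.3% lower. Hinfp, a transcription factor of H4 genes, fell to 23.0 and 23.1 CPM at 6 h, against 30.3 and 31.1 CPM at 0 h (log2 fold change -0.41 ± 0.06, SE, adjusted p = 0.00018 in edgeR). Yy1, a zinc finger transcription factor, fell to 158 and 157 CPM at 6 h, against 182 and 188 CPM at 0 h. Tut4, a uridylyltransferase, rose to 85.1 and 90.9 CPM at 6 h, against 68.1 and 69.1 CPM at 0 h (log2 fold change 0.36 ± 0.05, SE, adjusted p = 4.63e-05 in edgeR).

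Other members of that list were named after their values were seen, because they act on the stem-loop or its processing. Slbp, the stem-loop binding protein gene, fell to 81.5 and 81.1 CPM at 6 h, against 92.5 and 95.5 CPM at 0 h (log2 fold change -0.21 ± 0.04, SE, adjusted p = 0.00178 in edgeR). Npat, a coactivator of histone gene transcription, fell by 0.22 on the log2 scale, and Pou2f1, which encodes an octamer-binding factor, fell by 0.22. The U7 particle genes moved in opposite directions, Lsm10 higher by 0.47 and Lsm11 lower with a log2 fold change of -0.29. Lsm10 is low, at 11.3 and 9.66 CPM at 6 h against 8.19 and 7.0002 CPM at 0 h. Cpsf3, which encodes the endonuclease, had a log2 fold change of -0.01 and Lsm1 of -0.09, neither called.

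Histone mRNA is tied to S phase, and 23 genes of DNA replication were set beside it. None was called at 3 h against 0 h by edgeR, and at 6 h against 0 h 2 were higher (Tk1 and Pola1, named after their values were seen) and 14 lower, beside 10% of all genes tested higher and 12.3% lower. Their median was -0.13 on the log2 scale, and that of the tested histone genes 0.15. Cdt1, a replication licensing factor, fell to 112 and 116 CPM at 6 h, against 144 and 142 CPM at 0 h. Orc1, of the origin recognition complex, fell to 53.0 and 56.0 CPM at 6 h, against 74.1 and 70.5 CPM at 0 h. Uhrf1, which links replication to DNA methylation, fell to 465 and 460 CPM at 6 h, against 545 and 538 CPM at 0 h. The difference between the replication genes and the histone genes was not tested.

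Of 19 histone chaperone and deposition genes, 2 were higher (Asf1b and Anp32e) and 4 lower at 6 h against 0 h by edgeR, where 10% of all genes tested were higher and 12.3% lower, and 0 were called at 3 h against 0 h. The lower ones included Chaf1a and Chaf1b, subunits of the replication-coupled chaperone CAF-1, with log2 fold changes of -0.25 ± 0.04 and -0.21 ± 0.05 (SE). Nap1l4, a nucleosome assembly protein gene, had a log2 fold change of -0.13 ± 0.04 (SE), and the fourth was the histone acetyltransferase gene Hat1.

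Replication-independent histone genes, whose mRNAs are mostly polyadenylated, included far more abundant ones. H2afz stood at 282 RPKM, H3f3b at 150 and H3f3a at 42.7, against 15.6 for Hist1h1c. The linker histone genes H1f0 at 18.9 RPKM and H1fx at 14.8 RPKM were close to it. Of 11 such genes 3 were higher and 2 lower (H2afj and H2afv) at 6 h against 0 h by edgeR, against the same 10% and 12.3% of all genes, and 0 were called at 3 h. H1f0, which encodes a linker histone known from non-dividing and differentiating cells, rose to 49.3 and 51.3 CPM at 6 h, against 34.0 and 32.3 CPM at 0 h (log2 fold change 0.60 ± 0.06, SE, adjusted p = 1.79e-06 in edgeR). H3f3b was the third, with a log2 fold change of 0.09. H1fx rose to 19.7 and 20.6 CPM at 6 h, against 15.7 and 16.2 CPM at 0 h. H2afj fell to 20.4 and 20.4 CPM at 6 h, against 25.2 and 25.8 CPM at 0 h.

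**Figure D4:**
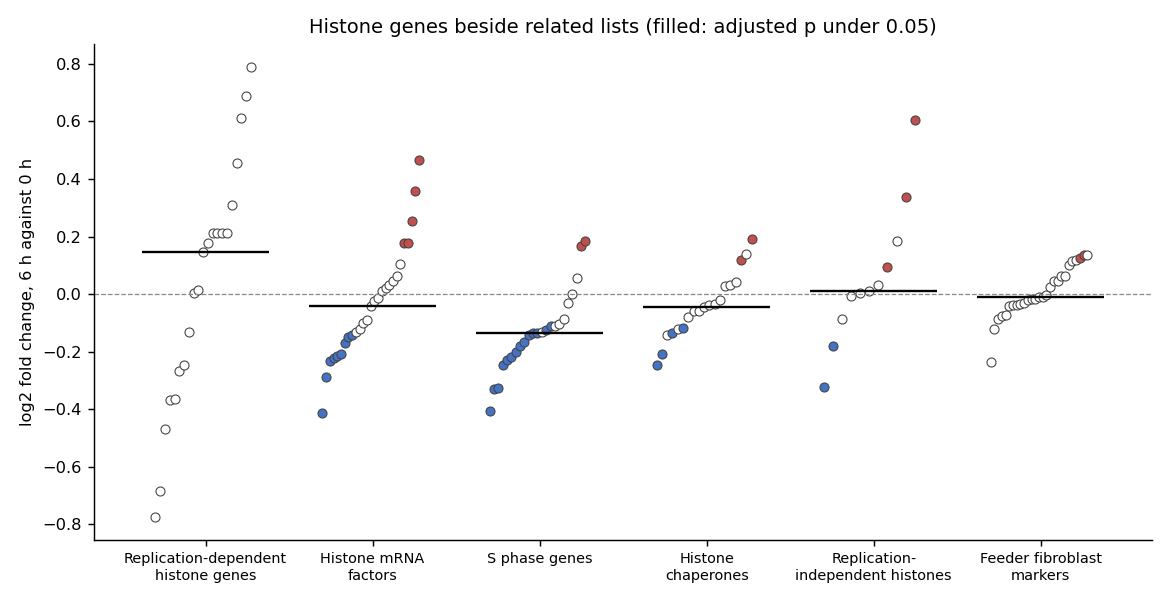
Log2 fold change at 6 h against 0 h of the 21 tested histone genes and of 5 related lists, each ordered by value (red called higher, blue called lower, open not called at an adjusted p of 0.05 in edgeR, lines medians). The histone genes spread from -0.78 to 0.79 with no call, while replication genes lie mostly below 0 with a median of -0.13.

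Feeder cell markers were, like the called histone genes, higher at 6 h than at 3 h. All 27 fibroblast markers were tested, so feeder RNA was present in every library, and their summed level was 24888 and 22877 CPM at 0 h, 22170 and 21804 CPM at 3 h, and 24843 and 22429 CPM at 6 h. At 6 h against 3 h their median log2 fold change was 0.13 and 26 of 27 were positive. Of the 27, 10 were called higher, Col6a2 and Col6a3 among them, beside 9.89% of all genes tested. Their median at 6 h against 0 h was -0.01, with those 2 called higher, beside 10% of all genes tested. With the mean log2 CPM of these markers as a covariate in the edgeR fit, 0 histone genes were called at 6 h against 3 h. The log2 fold change was 0.04 for Hist1h1c (adjusted p = 0.862 in edgeR) and 0.32 for Hist1h2be (adjusted p = 0.727 in edgeR). The marker mean, taken as log2(CPM + 0.5), was lowest in the 3 h libraries, at 8.28 and 8.27, so covariate and group partly overlap. The share of all genes called in that fit is not given here, and why the calls were lost was not tested. In the same fit Hist1h1c was called at 6 h against 0 h, with a log2 fold change of 0.17 and an adjusted p of 0.0448 in edgeR. Which cells the histone reads came from was not tested. All 8 ES cell markers were present, the lowest at 66.6 CPM or more in each library. At 6 h against 0 h 3 were higher (Sox2, Nanog and Tdgf1) and 3 lower, beside 10% and 12.3% of all genes tested. The lower ones were Esrrb at -0.42, Zfp42 at -0.29 and Dppa5a at -0.14 on the log2 scale.

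**Figure D5:**
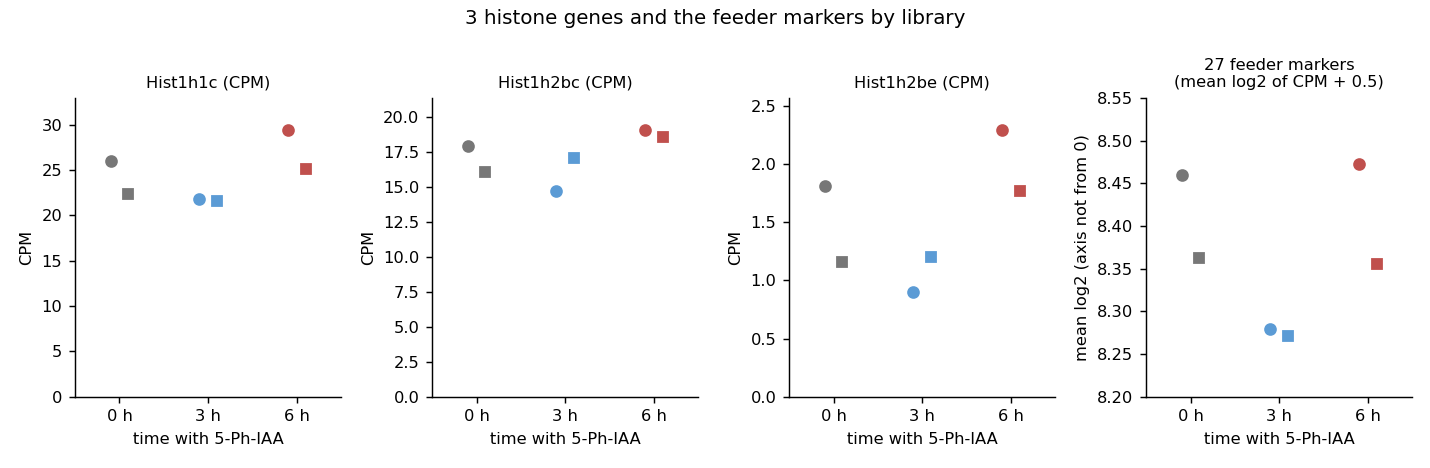
CPM of Hist1h1c, Hist1h2bc and Hist1h2be and the mean log2(CPM + 0.5) of 27 feeder markers in each library at 0, 3 and 6 h (circles replicate 1, squares replicate 2; the marker axis does not start at 0). The 3 h libraries are the lowest pair for the markers, and for Hist1h1c they sit at 21.8 and 21.6 CPM below all others.

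Other RNA without a polyA tail was checked for leakage into the libraries. Of 8 such RNAs listed, only 1, Rn7sk, had enough counts for testing. Rmrp, Rpph1, Rn7s1, Terc and Rny3 had 0 counts in every library, and Rn7s2 and Rny1 had few. Rn7sk, a small nuclear RNA, measured 0.518 and 1.72 CPM at 0 h, 1.18 and 2.13 CPM at 3 h, and 1.99 and 1.66 CPM at 6 h, and was not called in any comparison. Annotated small nucleolar RNA genes summed to 133 and 138 CPM at 0 h, 139 and 137 CPM at 3 h, and 110 and 112 CPM at 6 h. CT010467.1, an annotated gene that collects ribosomal RNA reads, varied from 1384 and 4459 CPM at 0 h through 5789 and 8058 CPM at 3 h to 10913 and 5197 CPM at 6 h, and Lars2, which also collects them, was called higher with it at 6 h against 0 h by edgeR. The first 6 h library had the highest CT010467.1 level and the highest histone sum of the 6, while the first 0 h library had the lowest CT010467.1 level and the second-highest histone sum. The part of such reads in the histone counts was not tested.

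The promoters show what the genes of a class share beyond their coding sequence. Windows of 300 bases, 250 before to 50 after the start, were available from RefSeq (GRCm38.p6) for 61 of the 67 genes, and motifs were searched on both strands. The octamer ATTTGCAT, the site known for H2B gene transcription, was in 6 of 16 H2B and 7 of 17 H2A windows and in 0 of the H1, H3 and H4 windows, against 1.75% of 27025 promoters. Many H2A and H2B genes lie head to head, so neighbouring windows can hold the same site. The octamer is shown in capitals for 3 H2B genes, with the distance of its first base from the start.
Hist1h2bg (chromosome 13, -59): agtcccttATTTGCATagaacctc
Hist1h2bb (chromosome 13, -90): agtctcttATTTGCATaaagcctt
Hist2h2bb (chromosome 3, -48): gaaacctcATTTGCATacaagctc
The box CCAAT was in 85.2% of the histone windows against 37.9% of all promoters, and only 3 of 12 H4 windows held it, while all H1, H2A, H2B and H3 windows did. The TATA box TATAAA was in 57.4% of the histone windows against 14.2% of all promoters.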

How the data were processed

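The deposited table gives unnormalised read counts for Ensembl genes in 6 libraries. Per the submitters' processing notes the authors used fastp 0.22.0, HISAT2 2.2.1, featureCounts 2.0.3 and the GRCm38 (mm10) build. Annotation, strand setting and handling of multi-mapping reads were not given in the sources used here. Per the labels' protocols, stranded single-end libraries were made from polyA RNA of 500 to 1000 ng total RNA.

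From these counts, genes were kept by filterByExpr with its minimum of 10 counts (15748 genes, 99.9% of counts), scaled with TMM factors and tested with edgeR 4.0.16 (quasi-likelihood test, R 4.3.3) with all libraries in 1 model of 3 group means (3 residual and 13.7 prior degrees of freedom). A gene was called at a two-sided Benjamini-Hochberg adjusted p under 0.05 over all genes tested. CPM values are TMM-scaled, and RPKM divides them by merged GENCODE M21 exon length. DESeq2 1.42.0, limma voom 3.58.1, other size factors, filters, a replicate block, a feeder-marker covariate and leaving out each library were alternatives; the legacy edgeR test was added after seeing the data. The edgeR fit was tested on simulated data.

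The members, the 8 gene lists and the naming rule were chosen with earlier results of these data known. The rule named the 3 members of each class with the highest mean CPM, the called members, those with 0 counts, and up to 3 called genes of each other list with the smallest adjusted p at 6 h against 0 h. Genes named for an unadjusted p, a sequence, non-overlapping groups or a small count of calls fall outside it and were named after their values were seen. In the lists Symplk, Zcchc11 and Zcchc6 were matched as Sympk, Tut4 and Tut7. Intervals of sums cover counting error only.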

Additional observations from a re-analysis of the deposited data

How the results depend on the processing

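At 3 h against 0 h 0 histone genes were called under every alternative run, DESeq2 giving 19 of the 21 no adjusted p. At 6 h against 0 h the count was 1 with the feeder-marker covariate (Hist1h1c) and 0 to 1 when a library was left out, Hist1h1c being called without the first 0 h or the second 6 h library. At 6 h against 3 h the 2 calls became 0 with no filter on low counts, 0 with DESeq2 and 0 with the feeder-marker covariate. They also changed when some of the libraries were left out. DESeq2 gave no adjusted p to 17 of the 21 genes, and more genes were tested without a filter. Why the calls changed was not tested. The labels give the libraries replicate numbers. Over all genes tested, same-numbered libraries did not deviate together (correlations of 0.04, 0.04 and -0.02), and the main model did not pair them. The summed feeder markers, however, were higher in the first library than in the second at each time. They measured 24888 and 22877 CPM at 0 h, 22170 and 21804 CPM at 3 h, and 24843 and 22429 CPM at 6 h. Whether the numbers pair the libraries is therefore not settled. With the replicate block, 4 histone genes were called at 6 h against 3 h (Hist1h1c, Hist1h2bc and Hist1h2be higher, Hist1h2ap lower), 0 at 3 h and 0 at 6 h against 0 h. The share of all genes called with the block is not given here, so these counts cannot be set against it. Without the block, 21.7% of all genes tested were called at 6 h against 3 h.

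The log2 ratio of the summed level ranged from -0.15 to 0.01 at 3 h against 0 h, 0.04 to 0.19 at 6 h against 0 h and 0.10 to 0.26 at 6 h against 3 h when a library was left out. Sign changes touched uncalled values only. With the feeder-marker covariate at 3 h against 0 h the log2 fold change was 0.13 for Hist1h1c, -0.022 for Hist1h2ap, 1.11 for Hist1h2ac, 0.0098 for Hist1h2bc, 0.11 for Hist1h2be, 0.27 for Hist1h3b and -0.13 for Hist2h3c2. At 6 h against 3 h it was -1.09 for Hist1h1e and -0.067 for Hist1h3b. With limma voom Hist1h2ac was 0.029 at 3 h and Hist1h4i -0.0091 at 6 h against 0 h, and with no filter Hist1h4i was -0.00064.

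Leaving out 1 library at a time also changed the sign of uncalled log2 fold changes. At 3 h against 0 h the ranges were -0.40 to 0.16 for Hist1h1d, -0.41 to 0.82 for Hist1h1e, -0.44 to 0.47 for Hist1h2ac, -0.21 to 0.0088 for Hist1h2bc, -0.35 to 0.25 for Hist1h3b, -0.26 to 0.56 for Hist2h3c2, -0.098 to 0.065 for Hist1h4i and -0.22 to 0.55 for Hist1h4d. At 6 h against 0 h they were -0.30 to 0.92 for Hist1h1e, -0.12 to 0.14 for Hist3h2a, -0.72 to 0.25 for Hist1h2ac, -0.66 to 0.23 for Hist1h3d, -0.068 to 0.53 for Hist1h3b and -0.27 to 0.22 for Hist1h4i. At 6 h against 3 h they were -0.22 to 0.41 for Hist1h1e, -0.69 to 0.18 for Hist1h2ac, -0.43 to 0.20 for Hist2h2be and -0.24 to 0.25 for Hist1h4i.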
